A study of Mus musculus with 2 samples.

Results

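Transcripts of the epidermal barrier lipid genes were compared between K5.Pp6fl/fl and Pp6fl/fl keratinocytes, each genotype represented by 1 culture from mouse tails. The set holds 38 named genes of 47719 in the table, chosen by symbol for their roles in ceramide synthesis, acylceramide formation, lipid transport and lipid breakdown, and all 38 were found. The K5.Pp6fl/fl cells carry floxed Pp6 alleles that are deleted under control of the keratin 5 promoter of the basal epidermal layer, and the Pp6fl/fl cells carry the floxed alleles alone. Pp6, named Ppp6c in the table, encodes the catalytic subunit of protein phosphatase 6, a serine/threonine phosphatase. Both cultures came from C57BL/6J mice aged 8 weeks and were grown for 3 days in Medium 154CF. The labels give no number of mice per culture, and cells that escaped deletion were not counted.

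The outer epidermis holds water in by filling the spaces between its dead cells with sheets of ceramides, cholesterol and free fatty acids. Keratinocytes build ceramides from serine and a fatty acid, lengthen the fatty acid to an ultra-long chain, hydroxylate its end and link it to linoleate, and load the products into lamellar granules as the cells differentiate. Lipoxygenases then oxidise the linoleate so that the lipid can be bound to the protein envelope, and phospholipases, glucocerebrosidase and sphingomyelinase convert the precursors that the granules release.

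Gene reads came to an estimated 17361254 in the K5.Pp6fl/fl library and 19374767 in the Pp6fl/fl library, and levels are given as CPM, reads scaled to library depth and composition. With 1 library per genotype no difference has a replicate check or a test; each fold is the K5.Pp6fl/fl CPM over the Pp6fl/fl CPM, and the range after it is an exact 95% interval that covers counting error only. Ppp6c itself had 707 reads in the K5.Pp6fl/fl library and 1074 in the Pp6fl/fl library, that is 40.7 and 55.5 CPM. The fold was 0.733 (0.665 to 0.806), lower in the library whose label carries the deletion. By the authors' FPKM, a level corrected for transcript length and depth, Ppp6c was at 16.8 and 30.6, a fold of 0.548. The effective length that joins its reads to its FPKM was 1.34 times as long in the K5.Pp6fl/fl library. The basal keratins Krt14 and Krt5 marked both libraries as keratinocytes, with Krt14 at 28600 CPM in K5.Pp6fl/fl and 30700 CPM in Pp6fl/fl cells. Of 6 fibroblast markers and 4 endothelial markers none reached 1 CPM, and of 6 leukocyte markers only Cd68 did, while Ptprc, Cd3e, Cd207, Cd74 and Lyz2 had 0 reads in both libraries.

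As a set, the barrier lipid genes were slightly higher in the K5.Pp6fl/fl library, and none was 2-fold apart. Of the 35 members with at least 1 CPM in a library, 24 had a log2 ratio above 0, which 46.8% of all expressed genes had, and 11 one below 0. Their median log2 ratio was 0.14, with the quartiles at -0.07 and 0.27, against a median of -0.01 and quartiles of -0.13 and 0.12 over all 12326 genes with at least 1 CPM. A gene was counted as higher or lower when the ratio, after adding 0.5 CPM to both values, was at least 25% higher, or by the same fold lower (20% lower), and the counting interval excluded 1. By this rule 7 of 35 members were higher, against 7.62% of all 12326 genes, and 0 were lower, against 4.1%. The rule and the members were chosen with earlier results of these data known, so these counts are a description. At 2-fold the counts were 0 higher and 0 lower, against 0.811% and 0.195% of all genes. The interval lay above 1 for 16 members (45.7%, against 16.6% of all genes) and below 1 for 3 members (8.57%, against 17.4%).

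**Figure D1:**
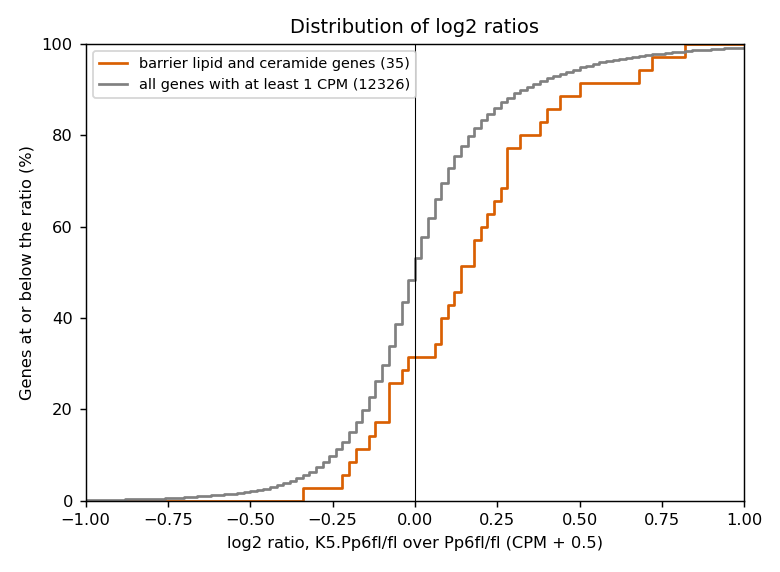
The curves give the percentage of genes (vertical axis) with a log2 ratio (K5.Pp6fl/fl over Pp6fl/fl, CPM) at or below the value on the horizontal axis, for 35 barrier lipid genes and for all 12326 genes with at least 1 CPM. The curve of the barrier lipid genes lies to the right over most of its length, with a median of 0.14 against -0.01.

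The 7 higher members were the phospholipases Pla2g2f and Pla2g4e, the sulfotransferase Sult2b1, the serine palmitoyltransferase subunit Sptlc3, the lipid transporter Abca12, the ceramide synthase Cers3 and the fatty acid binding protein Fabp5. They come from 5 of the 8 role groups into which the set was divided. Pla2g2f, Sult2b1 and Pla2g4e had the largest folds, from 1.6 to 1.86, at modest levels, whereas Abca12 and Fabp5 had folds of 1.3 to 1.35 at the highest read counts of the 7. Among members with an interval above 1, those just short of the rule were Ugcg, Dgat2, Elovl4 and Pnpla1, with folds between 1.2 and 1.21.

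**Figure D2:**
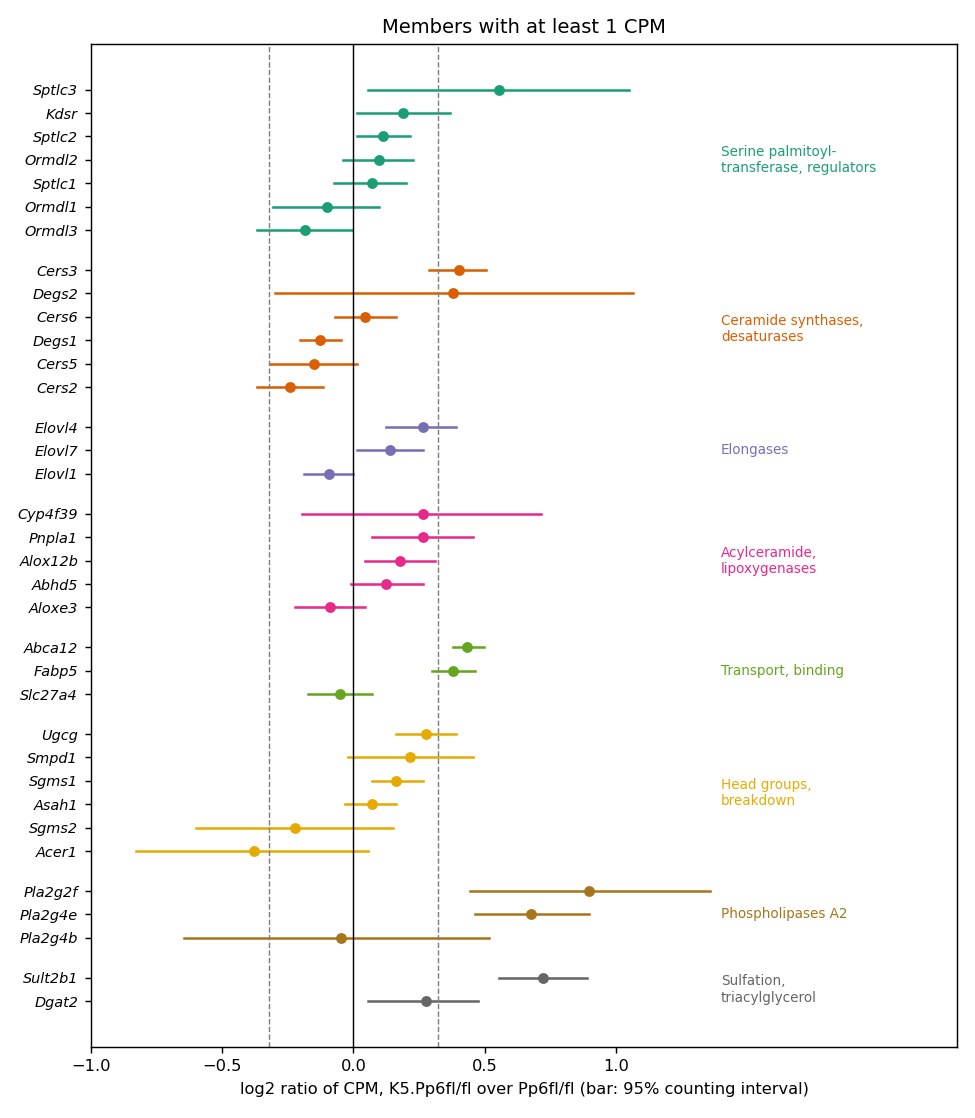
Points give the log2 ratio, K5.Pp6fl/fl over Pp6fl/fl by CPM, for the 35 members with at least 1 CPM, grouped and coloured by role, and bars the 95% interval of counting error. The dashed lines mark a ratio 25% higher or 20% lower; Pla2g2f, Sult2b1 and Pla2g4e lie farthest to the right and Acer1 farthest to the left, with an interval that includes 0.

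The 250 bases before the transcription start of 4 of the higher members are shown, from RefSeq on GRCm38.p6. They run 5′ to 3′ in the direction of transcription. These members are the 3 with the largest folds and Abca12, the gene with the most reads. Capitals mark a match to any of 4 short motifs searched on both strands: TGANTCA of AP-1, AACNNGTT of the Grainyhead-like factors, TTGCNNAA of the C/EBP factors and TATAAA, the TATA box. Where a gene has several starts, the first listed was used, which concerns Sult2b1 with 2.
Pla2g2f (chr4:138757599-138757848, minus strand): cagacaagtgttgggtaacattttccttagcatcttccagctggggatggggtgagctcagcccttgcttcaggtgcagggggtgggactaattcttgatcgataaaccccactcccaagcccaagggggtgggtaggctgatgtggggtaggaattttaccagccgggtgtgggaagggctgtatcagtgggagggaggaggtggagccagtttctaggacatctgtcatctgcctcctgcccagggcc
Sult2b1 (chr7:45759613-45759862, minus strand): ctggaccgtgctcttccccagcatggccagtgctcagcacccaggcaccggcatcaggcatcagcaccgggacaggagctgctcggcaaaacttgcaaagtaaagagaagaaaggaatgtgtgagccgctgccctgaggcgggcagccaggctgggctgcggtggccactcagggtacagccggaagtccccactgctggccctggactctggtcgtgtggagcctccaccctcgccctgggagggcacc
Pla2g4e (chr2:120245336-120245585, minus strand): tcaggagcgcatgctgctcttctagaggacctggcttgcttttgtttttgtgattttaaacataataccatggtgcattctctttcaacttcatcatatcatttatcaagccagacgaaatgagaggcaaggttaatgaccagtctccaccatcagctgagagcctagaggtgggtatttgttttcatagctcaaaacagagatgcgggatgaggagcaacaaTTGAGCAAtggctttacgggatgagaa
Abca12 (chr1:71414911-71415160, minus strand): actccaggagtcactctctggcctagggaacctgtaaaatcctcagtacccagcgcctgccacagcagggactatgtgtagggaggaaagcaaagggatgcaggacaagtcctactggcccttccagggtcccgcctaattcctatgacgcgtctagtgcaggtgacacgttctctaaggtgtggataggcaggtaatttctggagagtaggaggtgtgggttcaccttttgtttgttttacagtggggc
Promoter sequences were found for 32 members, 6 of them among the higher 7. The C/EBP letters stood in 3 of the 32 windows, those of Ormdl2, Sptlc3 and Pla2g4e, against 9.55% of 27025 windows of the same length. In Pla2g4e the match TTGAGCAA began 27 bases before the start, and in Sptlc3 the match TTATGCAA began 157 bases before it. The AP-1, Grainyhead-like and TATA letters stood in 0 of the 32 windows, against 6.87%, 3.63% and 13.0% of all windows. A match describes letters only, and their absence from these windows says nothing of whether a factor acts on the gene.

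Ceramide synthesis begins with serine palmitoyltransferase, and of its 3 genes in the set the minor subunit Sptlc3 passed the rule of 25%. Sptlc3 (ENSMUSG00000039092), which widens the range of chain lengths of the sphingoid base, had 83 reads in K5.Pp6fl/fl and 63 reads in Pp6fl/fl cells, which gives 4.77 against 3.26 CPM and a wide range for the fold of 1.47 (1.04 to 2.07). The common subunits were much nearer to equal. Sptlc1 was at 46.5 and 44.4 CPM (1.05-fold, 0.95 to 1.15), and Sptlc2 at 94.9 and 87.7 CPM (1.08-fold, 1.01 to 1.16). Compared per length by FPKM, the authors' level corrected for transcript length and depth, Sptlc2 stood far above Sptlc3, with 55.4 FPKM in K5.Pp6fl/fl and 61.6 FPKM in Pp6fl/fl cells against 2.46 and 1.66 FPKM for Sptlc3. Sptlc2 went opposite ways by the 2 measures, 1.08-fold by reads and 0.899-fold by FPKM. Kdsr, the reductase of the next step, was at 31.3 and 27.4 CPM (1.14-fold, 1.01 to 1.29).

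The ORMDL proteins hold serine palmitoyltransferase in check when ceramide is plentiful, and their 3 genes differed little. Ormdl3 was at 26.0 CPM in K5.Pp6fl/fl and 29.6 CPM in Pp6fl/fl cells, a fold of 0.88 with an interval just below 1 (0.776 to 0.997). Ormdl1 (0.932-fold, 0.809 to 1.07) and Ormdl2 (1.07-fold, 0.972 to 1.17) had intervals that included 1. Ormdl2 overlaps Dnajc14 on the opposite strand, which the unstranded libraries cannot separate, and their summed reads had a fold of 1.01 (0.949 to 1.08).

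The ceramide synthases, which join the sphingoid base to a fatty acid of a preferred length, went in different directions. Cers3 (ENSMUSG00000030510), the synthase of ultra-long-chain ceramides of the epidermis, had 1382 reads in K5.Pp6fl/fl and 1169 reads in Pp6fl/fl cells, that is 79.5 and 60.4 CPM, a fold of 1.32 (1.22 to 1.42). Cers2, which uses very long chains in many tissues, had 935 and 1230 reads, that is 53.8 and 63.6 CPM, a fold of 0.846 (0.776 to 0.922). The read count of Cers3 was therefore 1.48 times that of Cers2 in K5.Pp6fl/fl cells and 0.95 times in Pp6fl/fl cells. The ratios differed 1.56-fold (exact conditional interval 1.38 to 1.75). Cers3 and Cers2 had the highest and the lowest fold of the expressed synthases, so this pair gives the widest contrast among them. Ratios of gene pairs were not among the planned results. Per length, Cers3 made up 30.4% of the summed FPKM of the 5 synthases in K5.Pp6fl/fl and 23.7% in Pp6fl/fl cells, and Cers2 31.8% and 40.1%. Cers2 overlaps Setdb1 on the opposite strand by a short stretch, and the summed reads, with those of another overlapping gene model, had a fold of 0.899 (0.848 to 0.953).

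The remaining synthases did not pass the rule. Cers6, which prefers the shorter C16 chain as does Cers5, was at 68.1 CPM in K5.Pp6fl/fl and 66.0 CPM in Pp6fl/fl cells (1.03-fold, 0.953 to 1.12), and Cers5 at 30.4 and 33.7 CPM (0.902-fold, 0.802 to 1.01). Cers4 stayed under 1 CPM, with 12 reads in K5.Pp6fl/fl and 16 reads in Pp6fl/fl cells. Of the desaturases that turn dihydroceramide into ceramide, Degs1 was the main one, with 2455 and 2983 reads, that is 141 and 154 CPM, a fold of 0.916 (0.868 to 0.967). Degs2, which can also hydroxylate the base to give phytoceramide, was near the floor with 42 and 36 reads, and its fold of 1.3 had an interval from 0.812 to 2.09.

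Elongases lengthen the fatty acids that Cers3 uses. Elovl4, which makes the ultra-long chains, was at 56.4 CPM in K5.Pp6fl/fl and 47.2 CPM in Pp6fl/fl cells, a fold of 1.2 (1.09 to 1.31), short of the rule. Elovl7 was at 62.9 and 57.2 CPM (1.1-fold, 1.01 to 1.2). Elovl1, which supplies very long chains in many cell types, was at 90.3 and 96.3 CPM (0.938-fold, 0.877 to 1.0), and it had the most FPKM of the 3 in both libraries, at 88.0 and 94.9. The read count of Elovl4 was 0.625 times that of Elovl1 in K5.Pp6fl/fl and 0.49 times in Pp6fl/fl cells. These ratios differed 1.28-fold (1.14 to 1.43), for the pair with the highest and the lowest fold of the 3 elongases. The like differences for Sptlc3 over Sptlc2 (1.35-fold, 0.958 to 1.92) and Degs2 over Degs1 (1.42-fold, 0.883 to 2.28) had intervals that included 1. Elovl1 shares a short exon overlap with the mitotic gene Cdc20 on the opposite strand, which was at 67.8 CPM in K5.Pp6fl/fl and 44.5 CPM in Pp6fl/fl cells; the part of such reads in the Elovl1 count was not tested, and the sum of both genes had a fold of 1.12 (1.06 to 1.18).

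**Figure D3:**
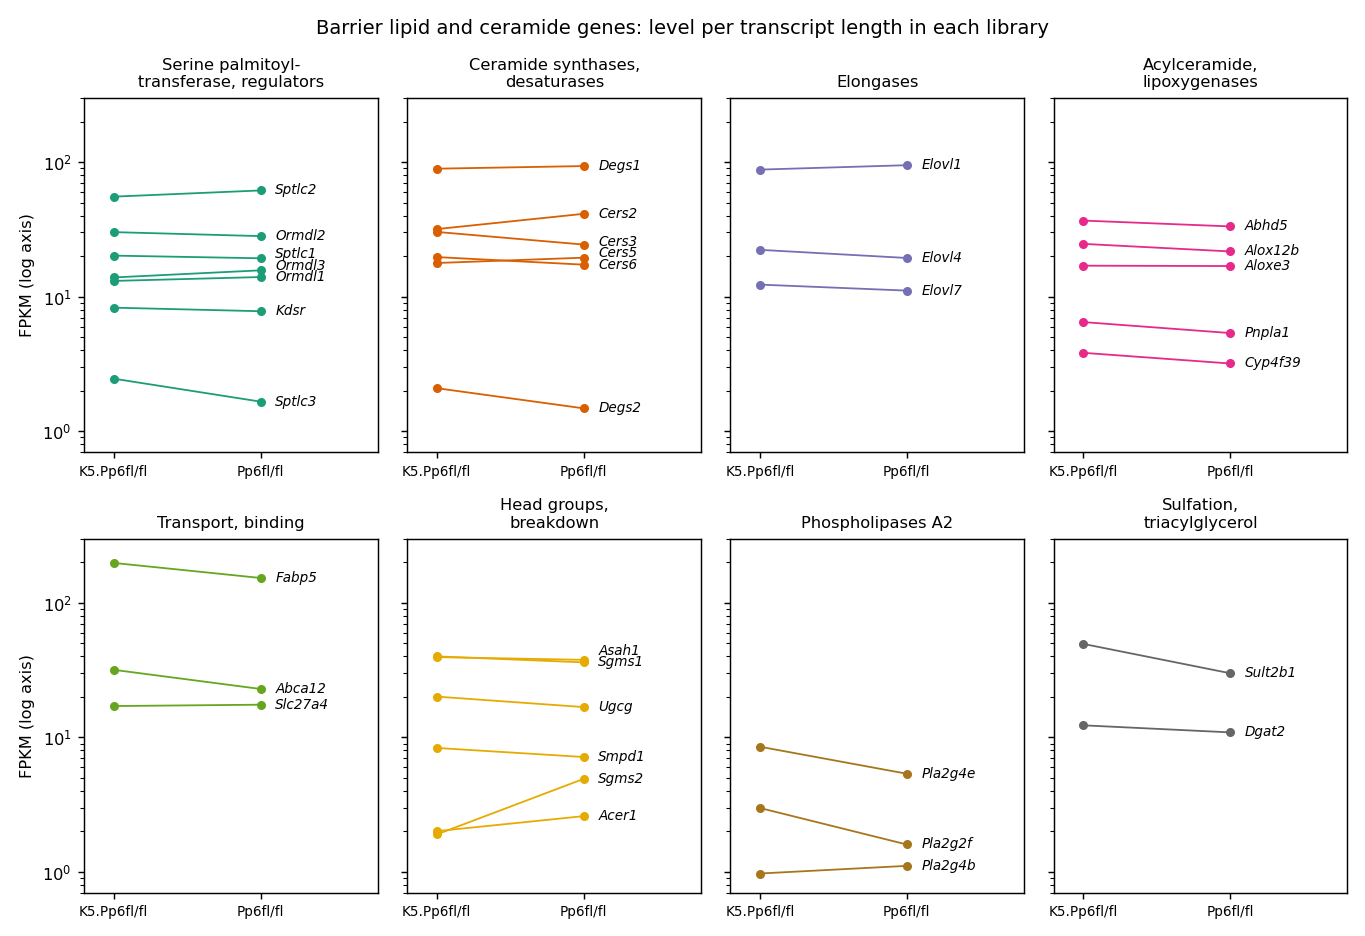
Lines join the FPKM (log axis) of each of the 35 expressed members in the K5.Pp6fl/fl library, on the left, and the Pp6fl/fl library, on the right, with a panel for each role group. Fabp5 had the highest level of the set at 198 and 153 FPKM, and Sgms2 shows the steepest line, at 1.9 and 4.92 FPKM.

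Acylceramides, the lipids that carry linoleate, need a terminal hydroxylation and an acyl transfer, and none of the members with these roles passed the rule of 25%. Pnpla1, the transacylase, had 470 reads in K5.Pp6fl/fl and 435 reads in Pp6fl/fl cells, that is 27.0 and 22.5 CPM, a fold of 1.2 (1.05 to 1.37). Its partner Abhd5, which also activates triacylglycerol breakdown, was at 51.0 and 46.7 CPM (1.09-fold, 0.993 to 1.2), and Cyp4f39, the mouse counterpart of the human hydroxylase gene CYP4F22, at 4.95 and 4.13 CPM (1.2-fold, 0.872 to 1.64). The 12R-lipoxygenase gene Alox12b had 912 and 896 reads, that is 52.5 and 46.3 CPM, a fold of 1.13 (1.03 to 1.24), while Aloxe3, which acts on the product of Alox12b, had 833 and 985 reads, that is 47.9 and 50.9 CPM, a fold of 0.941 (0.857 to 1.03). These 2 enzymes work in sequence. The ratio of their reads was 1.09 in K5.Pp6fl/fl and 0.91 in Pp6fl/fl cells, a 1.2-fold difference (1.05 to 1.37). By FPKM Alox12b had a fold of 1.14, and Aloxe3 was nearly equal at 17.0 and 16.9 FPKM. Alox12e, the epidermal 12-lipoxygenase gene of the mouse, had 1 read in K5.Pp6fl/fl and 0 reads in Pp6fl/fl cells, where a count of 0 allows up to 3 reads or 0.155 CPM.

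Lipid transport and binding held the most abundant of the higher members. Abca12 (ENSMUSG00000050296), which loads glucosylceramides into lamellar granules, had 4721 reads in K5.Pp6fl/fl and 3883 reads in Pp6fl/fl cells, that is 272 and 201 CPM, a fold of 1.35 (1.3 to 1.41). Fabp5 (ENSMUSG00000027533), the epidermal fatty acid binding protein, had 2400 and 2054 reads, that is 138 and 106 CPM, a fold of 1.3 (1.23 to 1.38). Of the processed pseudogenes that resemble Fabp5, Gm6166 was listed with 491 reads in K5.Pp6fl/fl and 130 reads in Pp6fl/fl cells and Gm14328 with 0 in both. Since reads may be split among the copies, the summed fold of 1.47 (1.39 to 1.56) is given beside that of Fabp5 alone. The fatty acid transporter gene Slc27a4 was at 63.3 and 65.6 CPM (0.964-fold, 0.888 to 1.05).

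Head group enzymes turn ceramide into the forms stored in lamellar granules. Ugcg, the glucosylceramide synthase, had 1289 reads in K5.Pp6fl/fl and 1186 reads in Pp6fl/fl cells, that is 74.1 and 61.3 CPM, a fold of 1.21 (1.12 to 1.31). Sgms1, the Golgi sphingomyelin synthase, was at 98.1 and 87.3 CPM (1.12-fold, 1.05 to 1.2). Sgms2, the form at the plasma membrane, had few reads, 107 in K5.Pp6fl/fl and 139 in Pp6fl/fl cells, a fold of 0.857 (0.66 to 1.11). By FPKM, however, Sgms2 was at 1.9 and 4.92, a fold of 0.387, and it was the member whose measures differed most. The effective length that joins its reads to its FPKM was 2.22 times as long in the K5.Pp6fl/fl library, and RefSeq lists 6 starts for the gene. Of 33 members with at least 50 reads in both libraries 1, Sgms2, had an effective length at least 25% longer or shorter by the same fold, against 4.26% of 10661 such genes. For Sgms2 the authors' deposited table has a log2 value of -1.32 and an FDR of 0.585.

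Of the 3 members that break down sphingomyelin or ceramide 0 passed the rule in either direction. Smpd1, acid sphingomyelinase, was at 17.5 CPM in K5.Pp6fl/fl and 15.1 CPM in Pp6fl/fl cells (1.16-fold, 0.987 to 1.37). Asah1, the lysosomal acid ceramidase, was at 92.4 and 88.4 CPM (1.05-fold, 0.977 to 1.12). Acer1, the alkaline ceramidase of the epidermis, had 74 and 107 reads, or 4.26 and 5.53 CPM, and with a fold of 0.77 the lowest ratio of the set by reads, though its interval included 1 (0.564 to 1.04).

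Phospholipases A2 release fatty acids from phospholipids, and 2 of the 4 in the set were higher. Pla2g2f (ENSMUSG00000028749), a secreted enzyme of the suprabasal epidermis, had 112 reads in K5.Pp6fl/fl and 67 reads in Pp6fl/fl cells, that is 6.44 and 3.46 CPM, a fold of 1.86 (1.36 to 2.56), the largest of the set. Pla2g4e (ENSMUSG00000050211), a cytosolic enzyme that makes N-acyl-phosphatidylethanolamines, had 429 and 298 reads, that is 24.7 and 15.4 CPM, a fold of 1.6 (1.38 to 1.86). Pla2g4b was at 2.84 and 2.93 CPM (0.968-fold, 0.64 to 1.43); it shares exons with the gene model Gm28042 on the same strand, so its own count is uncertain. Pla2g3 had 1 read in K5.Pp6fl/fl and 0 reads in Pp6fl/fl cells.

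Sult2b1 (ENSMUSG00000003271), which makes cholesterol sulfate, a lipid that regulates shedding of the outer layer, had 714 reads in K5.Pp6fl/fl and 482 reads in Pp6fl/fl cells. Scaled to depth these were 41.1 and 24.9 CPM, and the fold of 1.65 (1.47 to 1.85) had the narrowest interval among the 3 largest folds. Its exons overlap those of Lmtk3 on the opposite strand, which had only 20 and 23 reads. Dgat2, which makes triacylglycerol, a source of linoleate for acylceramides, was at 22.6 CPM in K5.Pp6fl/fl and 18.8 CPM in Pp6fl/fl cells (1.21-fold, 1.04 to 1.39).

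The authors' own statistics gave their lowest FDR values in the set to members already described. An FDR under 0.05 with a positive log2 fold change stood in the authors' deposited table for 8 members, against 8.86% of the 12326 genes, and with a negative one for 1 member, Cers2, against 5.5%. The lowest FDR values in the authors' deposited table were 2.08e-13 for Abca12, 3.78e-12 for Sult2b1 and 5.34e-08 for Fabp5. These values rest on 1 library per genotype, and the labels do not say what spread between cultures was assumed for them. The log2 fold changes in that table follow FPKM, and the sizes of most members were alike by reads and by FPKM. By FPKM, with a pseudocount of 1 and no counting interval, 6 of 35 members were at least 25% higher, against 10.9% of 12306 genes, and 2 were lower by the same fold, against 8.15%. None was 2-fold higher by FPKM, against 1.89% of genes, and 1, Sgms2, was 2-fold lower, against 1.14%. Cers3 fell short of the rule by FPKM, at 1.24-fold, and Cers2 passed it, at 0.769-fold.

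**Figure D4:**
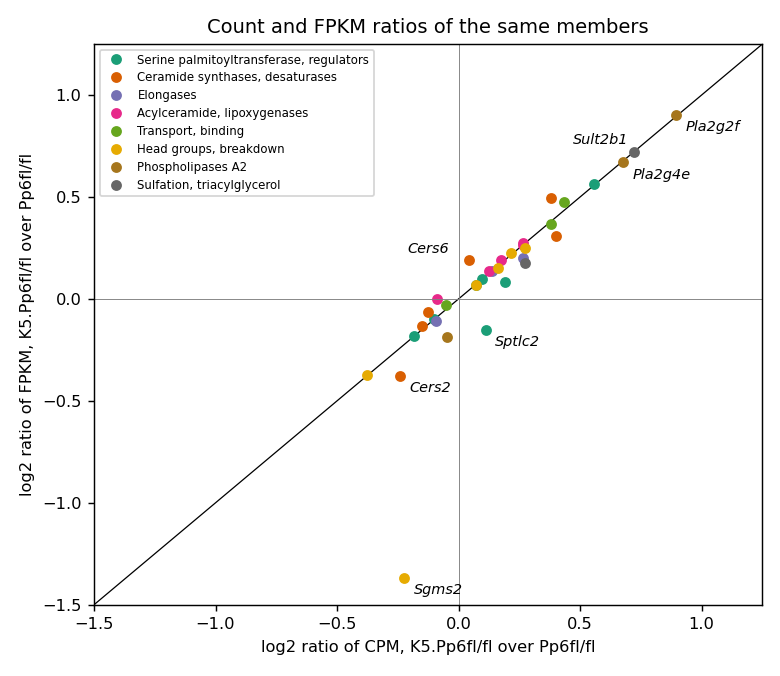
Each point is 1 of the 35 expressed members, with its log2 ratio of CPM on the horizontal axis and its log2 ratio of FPKM on the vertical axis, K5.Pp6fl/fl over Pp6fl/fl, and the line marks equal ratios. Most members lie on or near the line, and Sgms2, at 0.857-fold by CPM and 0.387-fold by FPKM, lies far below it.

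The wider pathway was described through 7 lists of 78 further genes, of which 51 had at least 1 CPM. Of these 51, 9 were higher and 1 lower by the rule of 25%, against 7.62% and 4.1% of all 12326 genes. Their median log2 ratio was 0.08, against -0.01 over all genes. The counts of the single lists that follow stand beside the same shares. In the list of acylceramide processing and the corneocyte lipid envelope 3 of 7 expressed genes were higher and 0 lower. These were Lipm, an epidermal lipase (2.99 CPM in K5.Pp6fl/fl and 1.5 CPM in Pp6fl/fl cells, 2.0-fold, 1.24 to 3.26), Tgm1, the transglutaminase of the envelope (48.9 and 35.0 CPM, 1.4-fold, 1.26 to 1.55), and Sdr9c7, a dehydrogenase of oxidised acylceramides (26.3 and 20.2 CPM, 1.3-fold, 1.13 to 1.49). In the phospholipase A2 list 3 of 8 were higher, Pla2g16 (24 and 10 reads, 2.67-fold, 1.23 to 6.26), the cytosolic Pla2g4a (54.4 and 39.3 CPM, 1.38-fold, 1.26 to 1.52) and the lysosomal Pla2g15 (1.28-fold, interval from 1.0 to 1.63). Sphingolipid turnover had 2 of 16 higher, the neutral sphingomyelinase Smpd3 (12.5 and 6.87 CPM, 1.82-fold, 1.46 to 2.27) and the sphingosine 1-phosphate exporter Spns2 (435 and 334 reads, 1.45-fold, interval above 1).

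The other lists held few differences. In the list of ceramide and fatty acid synthesis 1 of 8 was higher, Sptssa, a small activating subunit of serine palmitoyltransferase (54.1 CPM in K5.Pp6fl/fl and 42.4 CPM in Pp6fl/fl cells, 1.28-fold, 1.16 to 1.4), and 1 lower, Hacd1, a dehydratase of fatty acid elongation (11.8 and 15.8 CPM, 0.746-fold, 0.622 to 0.893). None of 8 genes of lipid transport, binding and storage passed, with the lipid droplet proteins Plin2 at 267 and 248 CPM and Plin3 at 122 and 122 CPM. None of 4 lipid-sensing nuclear receptors passed either, with Ppard at 157 and 152 CPM and Rxra at 98.3 and 98.0 CPM. The 5 genes of the lipoxygenase list, which are Alox5, Alox8, Alox12, Alox15 and Alox5ap, the gene of an activating protein, all stayed under 1 CPM; the most abundant were Alox12, with 15 reads in K5.Pp6fl/fl and 19 in Pp6fl/fl cells, and Alox8, with 12 and 12.

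Most markers of the granular and cornified layers were also higher in K5.Pp6fl/fl cells, and those of the spinous layer were mixed. Of 13 granular and cornified keratinocyte markers 10 were higher and 0 lower, against 7.62% and 4.1% of all 12326 genes. Their summed level was 2550 CPM in K5.Pp6fl/fl and 1930 CPM in Pp6fl/fl cells. Most of it came from Sprr1a, at 1460 and 1160 CPM (1.26-fold, 1.24 to 1.28). Klk5 (0.87-fold, 0.744 to 1.02), Hrnr (1.07-fold, 0.845 to 1.37) and Sprr1b (1.16-fold, 1.12 to 1.21) did not pass the rule. Of 8 spinous markers 2 were higher, Sbsn and Krtdap, and 1 was lower, the keratin Krt10 (16.1 CPM in K5.Pp6fl/fl and 20.9 CPM in Pp6fl/fl cells, 0.77-fold, 0.658 to 0.898). Calml3 (0.799-fold, 0.653 to 0.975) and the keratin Krt1 (0.944-fold, 0.785 to 1.14) also had ratios below 1. The spinous sums of 2350 CPM in K5.Pp6fl/fl and 1880 CPM in Pp6fl/fl cells came mostly from Dmkn, at 1170 and 945 CPM, and Sbsn, at 907 and 680 CPM. Of 7 basal markers 1 was higher, Krt15 (98 reads in K5.Pp6fl/fl and 72 in Pp6fl/fl cells, 1.51-fold, 1.11 to 2.08). Another 1 was lower, Trp63 (773 and 996 CPM, 0.776-fold, 0.759 to 0.793). In all, 6 of the 7 had a log2 ratio below 0. The interval lay below 1 for 5, against 17.4% of all genes, and above 1 for 1, against 16.6%. The basal sums were 53400 CPM in K5.Pp6fl/fl and 57000 CPM in Pp6fl/fl cells. Sebocytes express several of the same lipid genes; 3 of their 6 markers had at least 1 CPM, 0 were higher and 1 was lower, the sums were 10.8 CPM in K5.Pp6fl/fl and 12.1 CPM in Pp6fl/fl cells, and Awat1 had 0 reads in both libraries. The lower one was the desaturase Scd3, with 32 reads in K5.Pp6fl/fl and 77 reads in Pp6fl/fl cells (0.463-fold, 0.296 to 0.707), while Krt79 had 46 and 32 reads (1.6-fold, 0.997 to 2.6). Of 6 melanocyte markers 5 had at least 1 CPM, 3 were higher and 0 lower, with sums of 21.3 CPM in K5.Pp6fl/fl and 14.4 CPM in Pp6fl/fl cells. The part of these cell types in the result was not tested, and in RNA from whole cultures more cells of a layer and more RNA per cell cannot be told apart.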

How the data were processed

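RNA of 2 cultures was sequenced from polyadenylated RNA with a kit that does not mark strand, per the labels' protocols. The deposited table holds an estimated count, an FPKM and the authors' own statistics. Per the submitters' processing notes, RSEM, edgeR and mm8 were used; their roles, the versions, the aligner and the annotation are not named there. The deposited counts were taken to be expected counts multiplied by 1 constant per library, which is an inference from the values. Of the values under 100 reads in each column, 97.4% were whole, within 0.01 reads, once divided by 1 step. Dividing by it gave the estimated reads, a step that the planned design did not foresee. The deposited FPKM of the authors divide by an effective length that can differ between libraries. The deposited log2 values and the p-value and FDR columns were copied from the authors' table only to be quoted.

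Symbols came from Ensembl IDs (47219 of 47719 matched). CPM used TMM-scaled library sizes (edgeR 4.0.16, R 4.3.3), which moved ratios by a factor of 1.0026214 against totals. Ratios took 0.5 CPM as pseudocount. Fold intervals are exact conditional binomial (Clopper-Pearson, scipy 1.17.1), tested on simulated data; they leave out PCR duplication, since no molecular identifiers were used. Copies (at least 95% identity over 200 bases) and overlapping exons came from GENCODE M21 transcripts. Members, lists, rules and motifs were chosen with earlier results of these data known. All members are named; from each further list up to 3 genes past the rule of 25% with the largest ratios, or its 2 most abundant. Sts was not analysed here.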

Additional observations from a re-analysis of the deposited data

How the results depend on the processing

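No paired analysis was possible because each genotype has 1 library, and for the same reason no replicate could be left out. With total counts, DESeq2 size factors, upper quartile scaling, a pseudocount of 0.1 or 2 CPM, a floor of 5 CPM or no floor, 6 or 7 members were at least 25% higher, 0 were lower by the same fold, 0 were 2-fold apart, and the median log2 ratio was 0.12 to 0.15. With the deposited FPKM 6 were at least 25% higher, against 10.9% of 12306 genes, 2 lower by the same fold, against 8.15%, and 1 of these 2 at least 2-fold lower, against 1.14%; this setting has no counting interval. By FPKM the log2 value of Sptlc2 reversed to -0.15, that of Sgms2 moved to -1.03 with a pseudocount of 1 FPKM, and that of Ppp6c moved to -0.83 from -0.44 by counts; the cause was not tested. A further setting, chosen after seeing the data, left out the 13 expressed members that overlap another gene or have a near copy. There 4 of 22 members were at least 25% higher, against 7.62% of all 12326 genes. The median was 0.16, and fewer genes were counted. Members at a few CPM, such as Sptlc3, Degs2, Cyp4f39 and Acer1, are limited by depth, and Sptlc3 no longer counted at a floor of 5 CPM.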

Other observations

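The members were divided, after their values had been seen, by a judgement of which are known mainly from differentiating epidermis and which from many tissues. Placed with the epidermal genes were Abca12, Cers3, Elovl4, Elovl7, Alox12b, Aloxe3, Alox12e, Pnpla1, Cyp4f39, Sult2b1, Pla2g2f, Pla2g4e, Pla2g4b, Pla2g3, Degs2, Sptlc3, Acer1 and Fabp5. The 7 higher members were all among these, by a placement made with their values known. The 16 expressed epidermal genes had a median log2 ratio of 0.28, from -0.34 (Acer1) to 0.81 (Pla2g2f), with 11 intervals above 1 and 0 below. The 19 expressed genes of wide expression had a median of 0.06, from -0.24 (Cers2) to 0.27 (Ugcg), with 5 intervals above 1 and 3 below. Summed over all reads, the epidermal genes were at 827 CPM in K5.Pp6fl/fl and 653 CPM in Pp6fl/fl cells, a fold of 1.27 (1.24 to 1.3), and the widely expressed genes at 1080 and 1070 CPM, a fold of 1.02 (0.995 to 1.04). This division is a description and has no test. Because it was made with these values known, its counts, medians and folds cannot serve as support for a difference between the groups.

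Acer1, Aloxe3 and Pla2g4b were the epidermal members with a lower value by reads in the K5.Pp6fl/fl library, each with an interval that included 1. By FPKM Aloxe3 was not lower, at 17.0 and 16.9 FPKM. Lipk, a lipase of the epidermis from the list of acylceramide processing, stayed under 1 CPM, with 13 reads in the K5.Pp6fl/fl library and 0 in the Pp6fl/fl library.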
